A study of Mus musculus with 6 samples.

Results

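Immunoglobulin segment genes and genes of plasma cells were compared between the colon of HDAC2 KO mice and of control mice. The members were 62 of the 45037 probe sets tested: 51 whose platform symbols were all immunoglobulin heavy, kappa or lambda segments, and 11 of the plasma cell genes Jchain, Mzb1, Pou2af1, Tnfrsf17, Prdm1, Irf4 and Sdc1. Of the immunoglobulin probe sets, 23 belonged to the heavy chain, 24 to the kappa chain, 4 to the lambda chain and 0 to more than 1 class. A probe set is the group of short probes that reads a transcript on the array, and several can read the same gene, so probe sets of a gene are not replicates. All 33 symbols of the members matched RefSeq, and the 26 immunoglobulin symbols among them are a small share of the 395 segment symbols that RefSeq lists under the same rule.

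RNA came from the colon of 3 control mice and 3 HDAC2 KO mice of a background mixed from CD-1, 129 and C57BL/6. In the KO group a floxed Hdac2 gene, which encodes a histone deacetylase, was deleted by a Cre recombinase under the villin promoter. That promoter is active in intestinal epithelial cells, so plasma cells and B cells are not its target. Which alleles the controls carried, and the age and sex of the mice, are not given in the sources used here, and the mice received no treatment. The titles and genotype labels name HDAC2 alone, whereas the description of the KO samples names both HDAC1 and HDAC2.

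Plasma cells are B lymphocytes that have become secretory cells, and the gut wall holds many of them. Each joins a heavy chain with a kappa or a lambda light chain. In the gut the heavy chain is mostly that of IgA, joined into pairs by the J chain and carried across the epithelium into the lumen, while IgM is also the receptor of resting B cells. A variable segment is expressed only by the cells that chose it during recombination, whereas a constant segment is shared by all cells of its class.

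The source labels name epithelium, and all 10 epithelial marker genes lay above the 40th percentile of signal on the arrays, a log2 signal of 5.59. So did all 5 smooth muscle, all 5 fibroblast and all 4 measured adipocyte markers, so the samples also held RNA of other layers. Hdac2 itself was lower in HDAC2 KO without passing the threshold over all probe sets: its 3 probe sets differed by -0.21 (limma adjusted p = 0.0768), -0.22 (adjusted p = 0.253) and -0.08 (adjusted p = 0.867). Female-expressed Xist (11.52 to 12.04) and male-expressed Eif2s3y (7.48 to 8.32) both gave signal on each of the 6 arrays, although the labels name 1 mouse per array. Whether animals were pooled cannot be told from the labels. Xist was lower and Eif2s3y higher on all HDAC2 KO arrays, and the part of sex in the results was not tested. The root mean square deviation of an array from its group mean was 0.109 for HDAC2 KO replicate 2 and 0.0731 to 0.0929 for the others.

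Of the 11 probe sets of Ighm, the IgM heavy chain, 3 fell by more than 2-fold and 6 were not called. Single probe sets of Iglv1 and Igkv6-14 also fell by more than 2-fold. The IgA and kappa constant probe sets were slightly lower on all HDAC2 KO arrays, and single variable segments moved in both directions. Of the 62 members, 15 were called lower and 4 higher in HDAC2 KO (limma, Benjamini-Hochberg adjusted p under 0.05 over all 45037 probe sets), or 24.2% and 6.45%. Over all probe sets 3.80% were called, 2.08% lower and 1.72% higher. With a fold of at least 1.5 added, 9 members were called lower and 1 higher, against 0.693% and 0.375% of all probe sets. Among the 47 members at or above the 40th percentile, tested with that filter, 17 were called lower and 5 higher, against 9.28% of all such probe sets in either direction, 4.74% lower and 4.54% higher. With a variance that follows the signal (intensity trend and robust variances), 22 members were called lower and 7 higher, against 3.76% and 3.69% of all probe sets. The groups did not overlap in 28 members that were lower (45.2%) and in 9 that were higher (14.5%), against 11.3% and 11.9% of all probe sets. An unadjusted p under 0.05 was met by 34 of the 62 members and by 7377 of the 45037 probe sets. The median difference of the members was -0.11 on the log2 scale, and that of all probe sets 0.0041. The count of members called lower was 8 without control replicate 3 and 9 without control replicate 1. In bulk tissue, fewer cells of a type and less RNA per cell cannot be told apart.

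**Figure D1:**
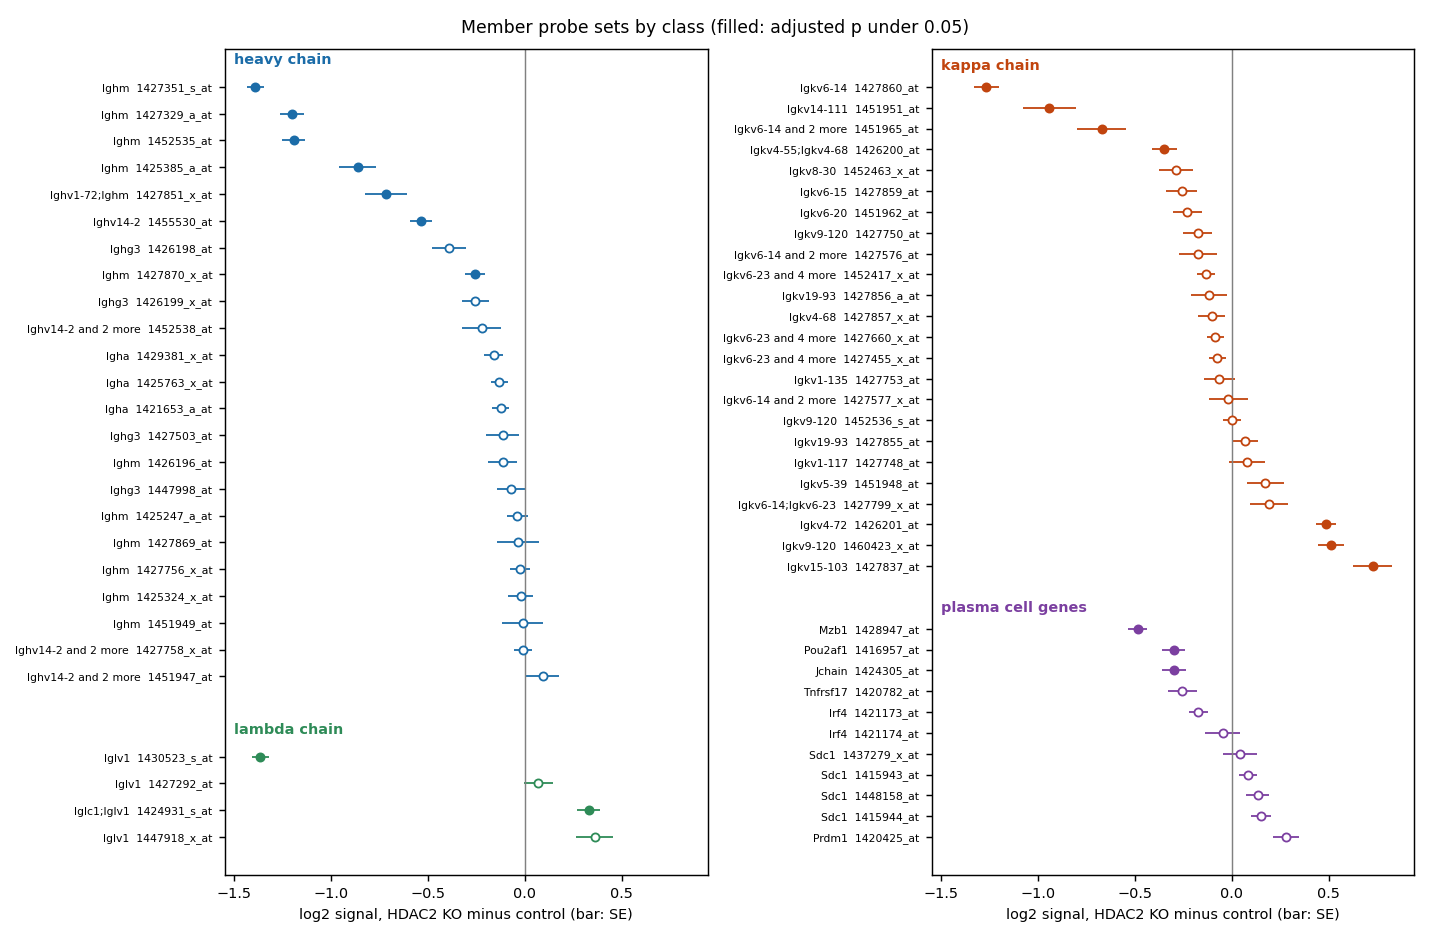
Difference in log2 signal, HDAC2 KO minus control, of all 62 member probe sets by class (x axis; points, with the SE as bar; filled points were called at an adjusted p under 0.05). The heavy chain probe sets lie at or below 0 apart from 1 at 0.09, whereas kappa and lambda probe sets lie on both sides of it.

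Calls in the heavy chain went 1 way. Of its 23 probe sets 7 were called lower and 0 higher, against 2.08% and 1.72% of all probe sets. Of the 7, 5 were probe sets of Ighm alone, while those of Igha alone and of Ighg3 alone gave 0 calls. The median of the 23 was -0.13, and 12 had an unadjusted p under 0.05, against 7377 of all 45037. With the signal-dependent variance, 11 of the 23 were called lower and 0 higher, against 3.76% and 3.69% of all probe sets. Signals below the 40th percentile carried no call: 15 immunoglobulin probe sets lay there and 0 of them passed limma, 4 having an unadjusted p under 0.05 and 1 passing with the signal-dependent variance.

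Ighm, the constant gene of IgM, was read by 11 probe sets of its own. The one with the lowest p, 1427351_s_at, gave 10.51, 10.50 and 10.47 in control mice and 9.11, 9.10 and 9.09 in HDAC2 KO mice. The groups lay far apart relative to the spread within each, and the signal fell by 1.39 (SE 0.044, adjusted p = 9.88e-06) or 2.62-fold. Probe set 1427329_a_at gave 9.78, 9.68 and 9.73 in control and 8.56, 8.43 and 8.59 in HDAC2 KO, a 2.30-fold fall (SE 0.061 on the log2 scale, adjusted p = 6.30e-05). Probe set 1452535_at fell by a like amount, from 9.16 ± 0.098 to 7.96 ± 0.027 (mean ± SD, n = 3, limma adjusted p = 6.41e-05).

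Of the other 8 Ighm probe sets 2 were called. Probe set 1425385_a_at read 6.34, 6.60 and 6.32 in control and 5.58, 5.67 and 5.42 in HDAC2 KO (1.82-fold lower, adjusted p = 0.00318). Probe set 1427870_x_at was 9.21 ± 0.037 in control mice and 8.96 ± 0.054 in HDAC2 KO mice (mean ± SD, n = 3), 1.19-fold lower with a limma adjusted p of 0.0391. Its call did not survive the removal of any 1 array (adjusted p between 0.0636 and 0.157), nor centring each array on its median (0.0576). The 6 that were not called (1425247_a_at, 1425324_x_at, 1426196_at, 1427756_x_at, 1427869_at and 1451949_at) differed by -0.11 to -0.01, with overlapping groups. Probe sets annotated to this gene thus ranged from -1.39 to -0.01. Which of them read the constant region itself and which a rearranged variable region was not analysed here.

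Igha, the constant gene of IgA, lay at the top of the scale. Probe set 1421653_a_at gave 14.37 in each control mouse and 14.23, 14.25 and 14.25 in HDAC2 KO mice. Probe set 1425763_x_at read 14.14, 14.12 and 14.13 against 13.98, 14.03 and 13.99, and 1429381_x_at read 13.88, 13.88 and 13.87 against 13.75, 13.74 and 13.66. In all 3 the groups did not overlap, and the change in signal was -10.6% to -8.27%. Among all 952 probe sets with a mean signal of 12 or more, 20.8% were lower without overlap.

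These differences of -0.16 to -0.12 were not called (adjusted p between 0.136 and 0.203; 3 of 3 with an unadjusted p under 0.05). Their SD was 0.00215 to 0.0123 within control and 0.0125 to 0.0466 within HDAC2 KO, beside an SE of 0.043 to 0.047 from limma, whose variance prior is shared by all signals. With a variance that follows the signal, all 3 were called (adjusted p between 0.000318 and 0.000618). Such a variance called 3.76% of all probe sets lower, and 85 of the 952 with a mean signal of 12 or more. When each array was centred on its median, the adjusted p was 0.172 to 0.28. Of the 54 probe sets with a mean signal of 14 or more, 0 were called in either direction and the largest difference downward was -0.15, which is smaller than the falls of Ighm.

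Ighg3, the constant gene of the IgG3 subclass, was read by 4 probe sets, of which 0 were called (limma; 2 with an unadjusted p under 0.05; 1 called with a signal-dependent variance). The 2 without overlap sat in the lowest part of the scale: 1426198_at read 3.20, 3.29 and 3.49 in control and 3.04, 2.89 and 2.86 in HDAC2 KO (-0.39, adjusted p = 0.056), and 1426199_x_at was 3.82 ± 0.086 and 3.56 ± 0.105 (mean ± SD, n = 3, limma adjusted p = 0.123). The other 2, 1427503_at and 1447998_at, lay at or above the 40th percentile and differed by -0.12 and -0.07 with overlapping groups.

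Heavy chain variable segments were read by 5 probe sets, 4 of them also annotated to constant genes. Ighv14-2 alone had a probe set of its own, 1455530_at, with 8.46, 8.40 and 8.49 in control and 7.96, 7.83 and 7.94 in HDAC2 KO. It fell 1.45-fold (-0.54, SE 0.055, adjusted p = 0.00226). A probe set annotated to both Ighv1-72 and Ighm, 1427851_x_at, read 7.65, 7.57 and 7.81 against 7.02, 6.74 and 7.12 (1.64-fold lower, adjusted p = 0.0131), a call lost without control replicate 1 (0.0547) or control replicate 3 (0.0628). The 3 probe sets annotated to Ighv14-2, Ighg3 and Ighm together lay below the 40th percentile and were not called, at -0.22 (1452538_at), -0.01 (1427758_x_at) and 0.09 (1451947_at).

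**Figure D2:**
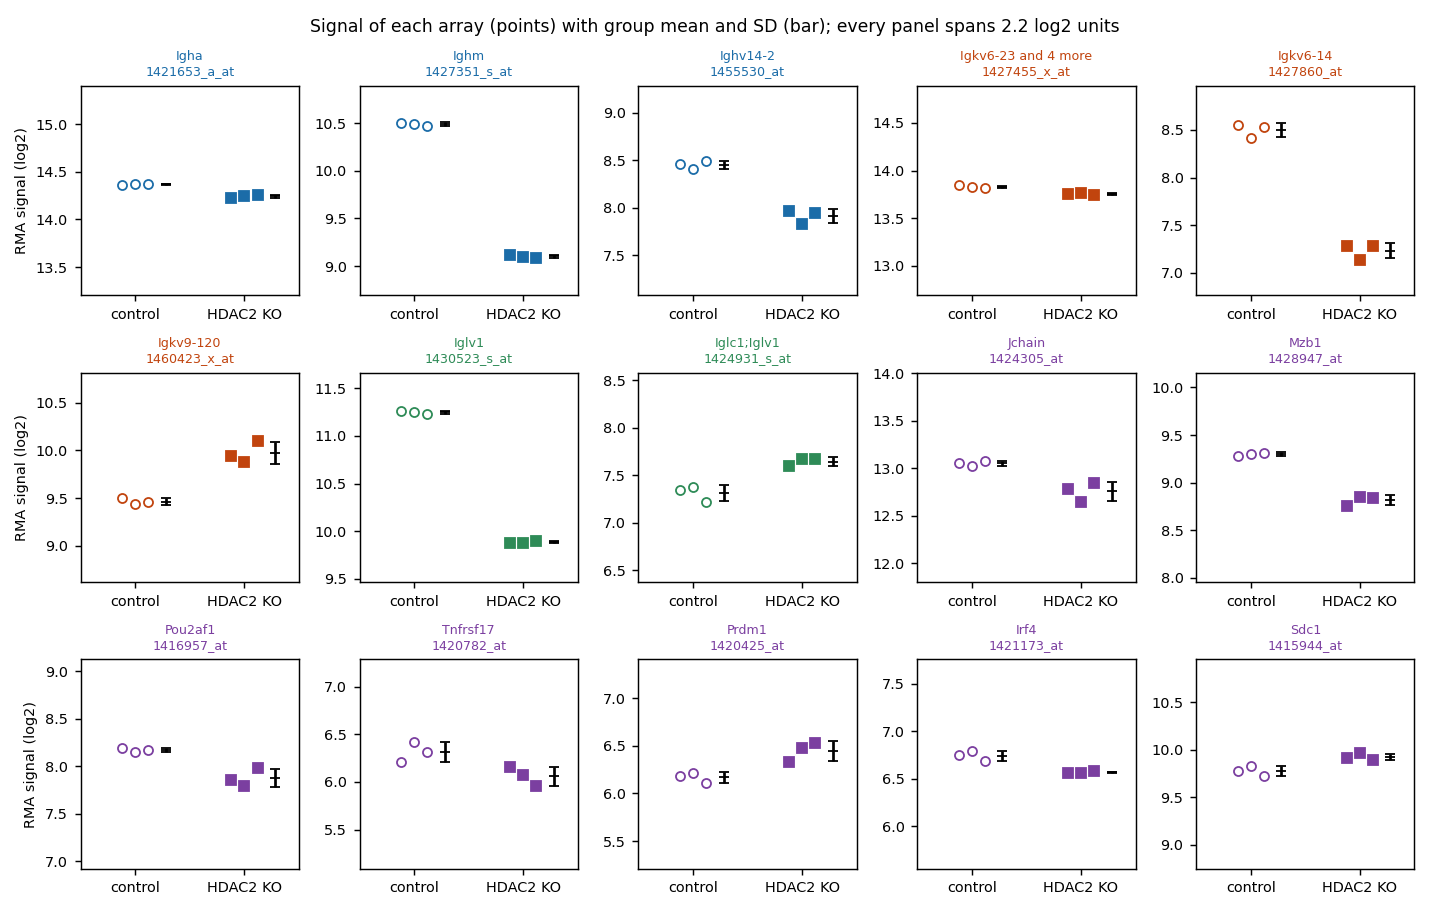
RMA signal (log2, y axis) of each array for 15 member probe sets (open circles: 3 control arrays; filled squares: 3 HDAC2 KO arrays; bars: group mean and SD). Ighm, Iglv1 1430523_s_at and Igkv6-14 drop by more than 1 unit, Igha and the kappa constant probe set by less than 0.15, and Igkv9-120 1460423_x_at lies higher in HDAC2 KO.

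The kappa chain class split. Of 24 probe sets 4 were called lower and 3 higher (16.7% and 12.5%), against 2.08% and 1.72% of all probe sets, with a median of -0.09. Leaving out single arrays took the lower count to between 1 and 3, with 1 without control replicate 3 and 2 without control replicate 1, control replicate 2 or HDAC2 KO replicate 1, while the count of 3 higher stayed the same.

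The kappa constant gene Igkc was read only by 3 probe sets that also list Igkj1 and 3 variable segments. Probe set 1427455_x_at read 13.84, 13.83 and 13.82 in control and 13.75, 13.76 and 13.74 in HDAC2 KO. Probe set 1427660_x_at was 13.82 ± 0.014 and 13.74 ± 0.021 (SD, n = 3), and 1452417_x_at was 13.48 ± 0.024 and 13.35 ± 0.035 (SD, n = 3). The groups did not overlap in any of the 3, against 20.8% lower without overlap among all 952 probe sets at a signal of 12 or more. These 3 differed in signal by -8.86% to -5.10%. They were not called (limma adjusted p between 0.203 and 0.462), and 1 of 3 had an unadjusted p under 0.05. All 3 passed with a signal-dependent variance (0.00241 to 0.0255), which called 85 of those 952 lower.

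Among kappa variable segments the falls were led by Igkv6-14. Its probe set 1427860_at read 8.55, 8.41 and 8.53 in control and 7.28, 7.14 and 7.28 in HDAC2 KO, a difference of -1.27 (SE 0.064, adjusted p = 6.25e-05). Igkv14-111 (1451951_at) read 7.50, 7.29 and 7.39 against 6.13, 6.69 and 6.53, with a wider spread in HDAC2 KO (1.92-fold lower, adjusted p = 0.0112), a call lost without control replicate 1 (0.0534) or control replicate 3 (0.0594).

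Both other calls came from probe sets with several symbols, of which 1451965_at, like the uncalled Igkv8-30, was picked for naming after its values were seen. The one listing Igkv6-14, Igkv6-23 and Igkv8-19, 1451965_at, went from 8.31 ± 0.068 to 7.64 ± 0.28 (mean ± SD, n = 3, limma adjusted p = 0.0328). It was lost without control replicate 1, 2 or 3 or HDAC2 KO replicate 1 (0.0671 to 0.128). The one listing Igkv4-55 and Igkv4-68, 1426200_at, went from 7.03 ± 0.11 to 6.68 ± 0.035 (mean ± SD, n = 3, limma adjusted p = 0.0319), and was lost without any array other than control replicate 1 (0.0576 to 0.129). Igkv8-30 (1452463_x_at), high on the scale, read 13.07, 13.05 and 13.15 against 12.92, 12.60 and 12.88 without overlap and was not called (-0.29, adjusted p = 0.152).

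Among kappa variable segments 3 rose. Igkv15-103 (1427837_at) read 7.51, 7.50 and 7.13 in control and 8.09, 8.13 and 8.11 in HDAC2 KO, 1.66-fold higher (SE 0.10, adjusted p = 0.00939). Control replicate 3 was the lowest array and the HDAC2 KO arrays lay close together (SD 0.025). Igkv4-72 (1426201_at) lay between 6.95 and 7.02 in control and between 7.41 and 7.52 in HDAC2 KO (1.40-fold higher, adjusted p = 0.00268). Igkv9-120 (1460423_x_at) read 9.50, 9.43 and 9.46 against 9.94, 9.87 and 10.10 (1.42-fold higher, adjusted p = 0.00717). All 3 kept their call when any 1 array was left out.

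For Igkv9-120 the other probe sets did not rise. Probe set 1452536_s_at read 8.02 ± 0.026 in control and 8.02 ± 0.030 in HDAC2 KO (mean ± SD, n = 3, limma adjusted p = 0.991), and 1427750_at, below the 40th percentile, differed by -0.18 (adjusted p = 0.293). The kappa variable probe sets that were not called ranged from -0.29 to 0.19. Least different were Igkv9-120 (1452536_s_at) with 0.0022, the set listing Igkv6-14, Igkv6-23 and Igkv8-19 (1427577_x_at) with -0.02 and Igkv1-135 (1427753_at) with -0.06.

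The lambda chain, which a minority of mouse plasma cells use, was read by 4 probe sets. Of these 1 was called lower and 1 higher, against 2.08% and 1.72% of all probe sets. Iglv1 (1430523_s_at) read 11.26, 11.25 and 11.23 in control and 9.87, 9.88 and 9.90 in HDAC2 KO. The groups lay 1.36 apart with an SD of 0.016 and 0.014, a 2.57-fold fall (SE 0.044, adjusted p = 1.03e-05). The set listing Iglc1 and Iglv1, 1424931_s_at, instead read 7.35, 7.38 and 7.22 in control and 7.59, 7.67 and 7.67 in HDAC2 KO, 1.26-fold higher (SE 0.059, adjusted p = 0.0262). The call of that rise went when any 1 array was left out (adjusted p between 0.0613 and 0.0894).

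Probe set 1447918_x_at of Iglv1 was also higher on all HDAC2 KO arrays, at 7.78, 7.74 and 8.05 against 7.38, 7.62 and 7.49, and was not called (adjusted p = 0.111; called at 0.0191 with a signal-dependent variance). The fourth, 1427292_at, lay in the lowest part of the scale at 3.34 and 3.41.

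**Figure D3:**
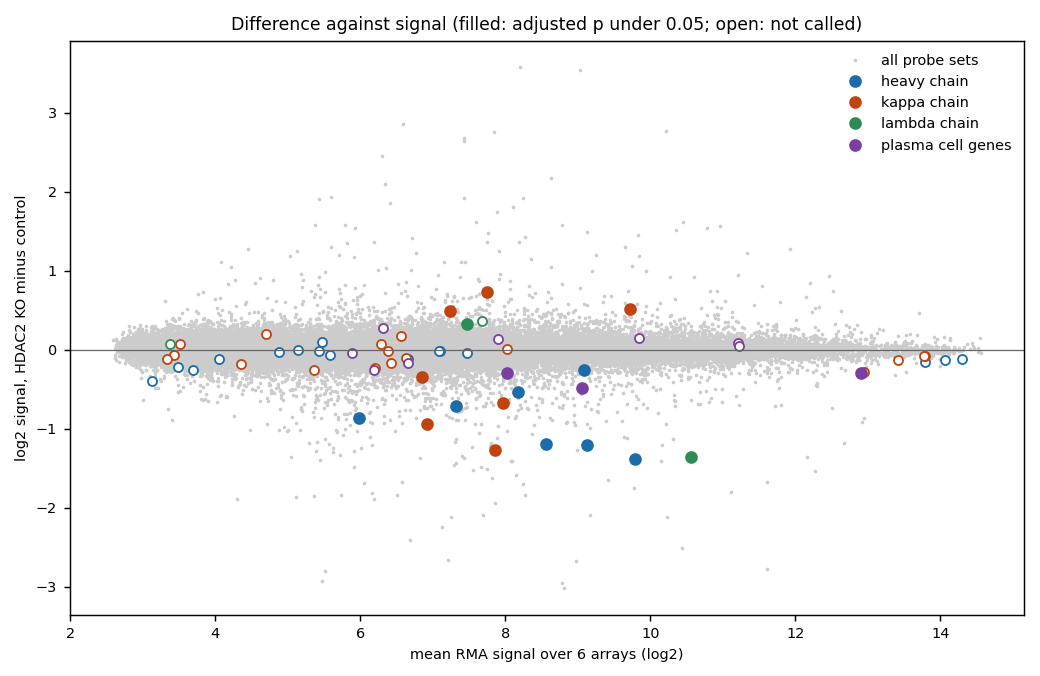
Difference in log2 signal, HDAC2 KO minus control (y axis), against mean log2 signal over 6 arrays (x axis) for all 45037 probe sets (grey) and the members by class (filled: called; open: not called). Differences narrow toward the right end, where Igha and the kappa constant probe sets sit between -0.16 and -0.08, and all called members but Jchain have a mean signal under 11.

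Immunoglobulin probe sets varied within groups somewhat more than others at middle signal. For the 27 immunoglobulin probe sets with a mean signal of 6 to 12 the median pooled SD was 0.083, against 0.065 for all 22896 probe sets of that range. For the 7 at a signal of 12 or more it was 0.020, against 0.029 for all 952. Of those 7, all were lower in HDAC2 KO without overlap, against 20.8% of all 952. By limma 0 of the 7 were called, against 1.68% of the 952 called lower. An unadjusted p under 0.05 was met by 5 of the 7 and 152 of the 952 in either direction, and 6 of the 7 and 85 of the 952 were called lower with a signal-dependent variance.

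Of the plasma cell genes, Mzb1, Jchain and Pou2af1 fell, while Tnfrsf17, Irf4, Prdm1 and Sdc1 were not called. Of the 11 probe sets 3 were called lower (27.3%) and 0 higher, against 2.08% and 1.72% of all probe sets, with a median of -0.05. Leaving out single arrays left 1 called, except that 2 were called without HDAC2 KO replicate 3. An unadjusted p under 0.05 was met by 7 of the 11, against 7377 of all 45037. With a signal-dependent variance 3 were called lower and 2 higher, against 3.76% and 3.69% of all probe sets. The groups did not overlap in 5 that were lower (45.5%) and 4 that were higher (36.4%), against 11.3% and 11.9% of all probe sets.

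Mzb1, an endoplasmic reticulum protein that helps plasma cells assemble and secrete antibody, read 9.28, 9.30 and 9.31 in control and 8.75, 8.85 and 8.84 in HDAC2 KO. It fell 1.40-fold (-0.49, SE 0.049, adjusted p = 0.00204) and kept its call when any 1 array was left out.

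Jchain, which joins IgA and IgM into polymers, read 13.05, 13.03 and 13.08 in control and 12.78, 12.64 and 12.84 in HDAC2 KO. The lowest array was HDAC2 KO replicate 2. The fall was 1.23-fold (-0.30, SE 0.062, adjusted p = 0.0466), a call that went when any 1 array was left out (0.0529 to 0.162) and after centring each array on its median (0.0642).

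Pou2af1, a B cell coactivator that works with octamer-binding factors at immunoglobulin promoters, read 8.19, 8.15 and 8.17 in control and 7.85, 7.79 and 7.98 in HDAC2 KO. It fell 1.23-fold (-0.30, SE 0.059, adjusted p = 0.0386). Of the 6 arrays, HDAC2 KO replicate 3 alone could be left out with the call kept (0.0284, against 0.0769 to 0.154 for the others), and centring on the median took it to 0.0532.

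Tnfrsf17, the survival receptor BCMA of plasma cells, read 6.21, 6.42 and 6.32 in control and 6.15, 6.07 and 5.96 in HDAC2 KO. It was lower without overlap and was not called (-0.26, SE 0.075, adjusted p = 0.137). Irf4, a transcription factor needed for plasma cells, read 6.75, 6.79 and 6.69 against 6.56, 6.56 and 6.58 in 1421173_at (-0.17, adjusted p = 0.119, called at 0.0429 among probe sets above the 40th percentile), and its second probe set, 1421174_at, overlapped between groups (-0.05).

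Prdm1, which encodes the plasma cell regulator BLIMP-1 and is also expressed in gut epithelium, went the other way. It read 6.18, 6.22 and 6.11 in control and 6.33, 6.48 and 6.53 in HDAC2 KO, higher on all 3 arrays and not called (0.28, SE 0.065, adjusted p = 0.069). It was called higher among probe sets above the 40th percentile (0.0295) and with a signal-dependent variance (0.0401). Sdc1, which encodes the surface proteoglycan CD138 of plasma cells and epithelium, was not called in any of its 4 probe sets. It was higher without overlap in 3 of them, against 11.9% of all probe sets. Of its probe sets, 1415944_at was called higher with a signal-dependent variance (0.0371) and among probe sets above the 60th percentile (0.0468). Probe set 1415943_at was 11.17 ± 0.013 and 11.26 ± 0.032 (mean ± SD, n = 3), 1415944_at 9.78 ± 0.053 and 9.92 ± 0.036, 1448158_at 7.83 ± 0.073 and 7.96 ± 0.059, and 1437279_x_at 11.20 ± 0.049 and 11.24 ± 0.17 with overlap. Their limma adjusted p lay between 0.195 and 0.871.

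The promoters of 6 of the plasma cell genes were held in the RefSeq table of GRCm38.p6, and those of Jchain, Pou2af1 and Prdm1 are shown because the first 2 fell and the last 2 hold letters of the octamer motif. Each line gives the 250 bases before the annotated start on the gene's own strand, and capitals mark TGCAAAT, the octamer without its first base, or its reverse complement ATTTGCA, a search chosen after the sequences were seen. The regions are chr5:88527898-88528147 on the minus strand for Jchain, chr9:51213440-51213689 on the plus strand for Pou2af1 and chr10:44458749-44458998 on the minus strand for Prdm1.
Jchain: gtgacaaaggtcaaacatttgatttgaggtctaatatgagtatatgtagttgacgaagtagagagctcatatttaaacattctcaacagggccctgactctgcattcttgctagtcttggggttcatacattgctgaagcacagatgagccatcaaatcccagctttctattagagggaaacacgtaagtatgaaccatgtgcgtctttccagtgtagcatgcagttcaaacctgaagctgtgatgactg
Pou2af1: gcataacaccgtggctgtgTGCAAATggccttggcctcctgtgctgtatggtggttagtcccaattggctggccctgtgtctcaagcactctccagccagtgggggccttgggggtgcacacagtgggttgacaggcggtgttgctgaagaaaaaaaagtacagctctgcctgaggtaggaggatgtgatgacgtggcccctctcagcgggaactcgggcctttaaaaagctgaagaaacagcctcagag
Prdm1: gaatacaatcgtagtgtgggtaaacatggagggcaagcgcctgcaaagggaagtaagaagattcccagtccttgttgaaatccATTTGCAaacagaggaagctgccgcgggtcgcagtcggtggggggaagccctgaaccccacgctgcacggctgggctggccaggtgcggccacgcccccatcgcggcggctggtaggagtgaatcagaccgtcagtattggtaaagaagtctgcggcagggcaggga

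The full octamer ATGCAAAT was searched on both strands (reverse complement ATTTGCAT) and stood in 0 of the 6 windows, against 1.6% of all 32851 promoter windows of that length. The shorter TGCAAAT, which any full octamer also contains, stood in 2 of the 6. It lay 231 bases before the start in Pou2af1 and 167 bases in Prdm1, on the reverse strand in the latter. Of all windows 3.56% held it. Because this form was chosen after the 6 sequences were seen, these shares are no test of enrichment. The other 3 windows, of Irf4, Sdc1 and Tnfrsf17, held neither form.

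Other genes of the B lineage and of antibody transport were taken as lists, each gene by its probe set of highest signal. In the B cell list 10 of 15 measured genes were called lower and 0 higher, with a median of -0.47, against 2.08% of all probe sets called lower. The low-affinity IgE receptor gene Fcer2a of resting B cells was 1.83-fold lower (-0.87, SE 0.070, adjusted p = 0.000714) and the adaptor gene Bank1 1.68-fold lower (adjusted p = 0.000561). Cd79b, part of the B cell receptor that carries surface IgM, was 1.62-fold lower and Ms4a1, which encodes CD20, 1.60-fold lower (adjusted p = 0.000468 and 0.000483).

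Genes of germinal centres and class switching were called in 0 of 8 cases by limma, against 3.80% of all probe sets, with a median of -0.07. Of the 8, 1 was called with a signal-dependent variance and 2 had an unadjusted p under 0.05, against 7377 of all 45037 probe sets at that p. Among the 8 genes the proliferation marker Mki67 differed by 0.17, the germinal centre gene Rgs13 by -0.33, the uracil glycosylase gene Ung by 0.11 and Mybl1 by -0.19. Genes of the surrogate light chain and of V(D)J recombination, which act in developing B cells of the marrow, were called in 0 of 6 cases (0 with an unadjusted p under 0.05; 0 with a signal-dependent variance). Of these, Vpreb1, Rag1 and Rag2 lay below the 40th percentile.

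The secretory machinery that plasma cells raise, and that goblet and other epithelial cells also use, had a median of -0.11. It was called lower in 2 of 18 genes and higher in 0, against 2.08% and 1.72% of all probe sets. In either direction, 8 of the 18 had an unadjusted p under 0.05 and 8 were called with a signal-dependent variance. Over all 45037 probe sets these counts were 7377 and 3354. Pdia4, a disulfide isomerase, fell 1.19-fold (adjusted p = 0.0321) and Manf, a secreted stress protein, 1.18-fold (adjusted p = 0.042). The chaperone gene Hspa5 (-0.18, adjusted p = 0.0903) and Derl3 (-0.23, adjusted p = 0.0954) were not called. Among probe sets above the 40th percentile both were called lower by limma (adjusted p = 0.0281 and 0.04). Of 7 other surface and adhesion genes of plasma cells, 3 were called lower, against 2.08% of all probe sets. Whether plasma cells or other leukocytes gave these falls was not tested. Tnfrsf13b, the receptor TACI, was 1.38-fold lower, the gut-homing integrin gene Itgb7 1.29-fold lower and the costimulatory receptor gene Cd27, low on the scale, 1.51-fold lower, while Cd28 differed by -0.48 and was not called (adjusted p = 0.0694).

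Genes of IgA transport, homing and survival had a median of -0.02. They were called lower in 4 and higher in 2 of 17 cases, against 2.08% and 1.72% of all probe sets. Madcam1, the vascular addressin that admits gut-homing lymphocytes, was 1.52-fold lower (-0.61, SE 0.061, adjusted p = 0.00196), and the plasma cell chemokine gene Cxcl12 was 1.36-fold lower (adjusted p = 0.00426). Its receptor gene Cxcr4 was 1.21-fold higher (adjusted p = 0.0189), and Aldh1a2, a retinoic acid synthesis enzyme, 1.52-fold higher (adjusted p = 0.000812). The other 2 genes called lower were the chemokine genes Ccl28, which attracts IgA plasma cells (-0.28, adjusted p = 0.0225), and Cxcl13, which attracts B cells (-0.26, adjusted p = 0.0415). Ccl28, Cxcl13 and Pigr, the epithelial receptor that carries polymeric IgA, were picked for naming after their values were seen. Pigr read 14.15, 14.12 and 14.16 in control and 14.09, 14.07 and 14.10 in HDAC2 KO and was not called (-0.06, adjusted p = 0.621). Of 8 Fc receptor genes 1 was called, against 3.80% of all probe sets in either direction. This was the mast cell IgE receptor gene Fcer1a, 2.03-fold lower from a low signal (5.22, 4.95 and 4.81 against 4.11, 4.04 and 3.77, limma adjusted p = 0.00493). Fcer1g (-0.19), Fcgr3 (-0.18) and Fcgr4 (-0.21) were not called.

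**Figure D4:**
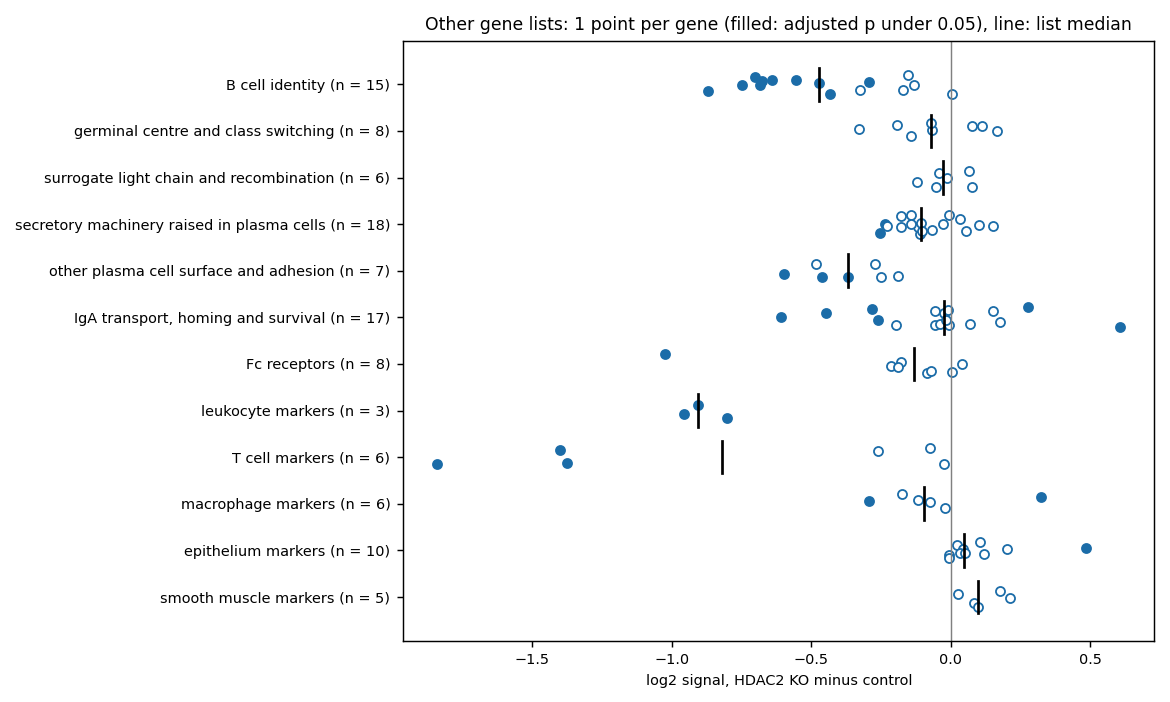
Difference in log2 signal, HDAC2 KO minus control (x axis), of each gene in the lists of antibody biology and of selected cell type markers (y axis; filled points were called; the black line is the list's median). The median is -0.47 for B cell genes, -0.11 for secretory machinery and 0.05 for epithelial markers.

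Markers of other cells moved with these results, and their part in them was not tested. For the counts that follow, 2.08% of all probe sets were called lower and 1.72% higher. All 3 leukocyte markers, Ptprc, Laptm5 and Coro1a, were called lower, and their summed signal was 11.57 to 11.61 in control and 10.61 to 10.77 in HDAC2 KO (log2 of the sum). T cell markers were called lower in 3 of 6 cases (9.82 to 9.90 against 9.02 to 9.24, with Cd8b1 below the 40th percentile), B cell markers in 3 of 4 (10.37 to 10.48 against 9.79 to 9.85), mast cell markers in 3 of 3 (9.99 to 10.12 against 8.34 to 8.43) and adipocyte markers in 4 of 4 (13.56 to 13.64 against 10.99 to 11.07). Macrophage markers were called lower in 1 and higher in 1 of 6, fibroblast markers lower in 1 of 5 and endothelial markers lower in 1 of 3, while 0 of 2 erythroid markers were called by limma (0 with an unadjusted p under 0.05; 0 with a signal-dependent variance). Epithelial markers were called higher in 1 of 10, Krt20, and lower in 0 (16.77 to 16.78 against 16.82 to 16.85), and 0 of 5 smooth muscle markers were called (limma; 2 with an unadjusted p under 0.05; 4 with a signal-dependent variance; summed 15.20 to 15.22 against 15.30 to 15.33). The 7 plasma cell genes and Xbp1, taken as markers of the cell type, were all above the 40th percentile. Of these 8, 3 were called lower and 0 higher, and their summed signal was 14.19 to 14.24 in control and 13.96 to 14.11 in HDAC2 KO. Signals were summed before the log, so Jchain (control mean 13.05), Xbp1 (12.78) and Sdc1 (11.20) weigh most in it. Sdc1 is also a gene of epithelium, so the sum is not a level of plasma cells alone.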

How the data were processed

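Total RNA of 6 mouse colon samples, 3 control and 3 HDAC2 KO, was hybridised as biotin-labelled cRNA to 1 Affymetrix array each. The deposited values are log2 signals, which the authors made with RMA of unstated version, per the submitters' processing notes. RMA hides changes of total RNA and can compress both ends of the scale. Scanner files and scan dates were not used here. The number of arrays limits the precision.

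Of 45101 probe sets, 64 array controls were left out. The platform annotation gave 34945 probe sets 1 symbol, 932 several and 9160 none. HDAC2 KO was set against control with R 4.3.3 and limma 3.58.1, by lmFit and eBayes without an intensity trend or a signal filter and with genotype the only term. P-values were adjusted by Benjamini-Hochberg over 45037 probe sets and called under 0.05. They set the difference between the groups against the spread between these samples within each group, moderated over all probe sets. Before use, the model was tested on simulated data. Differences are HDAC2 KO minus control. Other genes were represented by their single-symbol probe set of highest mean.

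Named are all plasma cell gene and constant segment probe sets, of the other segments in each class those with the 6 smallest and 3 largest p, members called higher, Hdac2, and up to 4 genes per other list by p. Members and lists were chosen with earlier results of these data known. Alternatives were signal filters, normalizations, variance models, weights, thresholds, probe set types, the replicate number as a block and leaving out each array.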

Additional observations from a re-analysis of the deposited data

How the results depend on the processing

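The number of arrays and the ends of the scale limit these results. A difference at a signal near 14 or below 5.59, the 40th percentile, may be compressed, which was not measured here. Of 45037 probe sets 1712 were called, against 2721 of those above the 60th percentile of signal, 3354 with an intensity trend and robust variances, 929 with the replicate block, 671 at an adjusted p under 0.01, 481 with a fold of at least 1.5 added, 681 tested against a fold of 1.1, and 779 to 1466 without single arrays. Members called lower, 15 in the reported fit, were 8 at 0.01, 9 with the fold, 8 without probe sets ending in _x_at, _s_at or _a_at and 8 to 12 without single arrays. Heavy chain calls went from 7 to 11 with the trend and to 2 without those probe set types. Kappa calls went from 4 to 7 with the trend, 2 with the block, 1 at 0.01, 2 against a fold of 1.1, 2 without sets of several symbols and 1 to 3 without single arrays. The single lambda call left with its _s_at probe set, giving 0. Plasma cell gene calls went from 3 to 1 after median centring, 1 with the block, 1 at 0.01, 0 with the fold, 1 against a fold of 1.1 and 1 to 2 without single arrays. The causes were not tested, except that stricter thresholds lower counts by construction.

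Replicate numbers were not taken as pairs. Deviations of same-numbered arrays correlated over all probe sets with r of 0.0864, 0.109 and -0.0071. Control replicate 1 correlated best with HDAC2 KO replicate 3 (0.146), and control replicate 3 with HDAC2 KO replicate 2 (0.0714). Above the 40th percentile r of same-numbered arrays was 0.163, 0.208 and 0.0699. There control replicate 3 correlated best with HDAC2 KO replicate 3, and so did control replicate 1 (0.181). These values do not settle whether the numbers mark pairs. With the replicate block 10 members were called lower and 3 higher.

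Sign changes occurred only among members that were not called. With array weights these were 1425324_x_at (0.015), 1427577_x_at (0.032), 1427758_x_at (0.0020), 1427869_at (0.034), 1451949_at (0.057) and 1452536_s_at (-0.0064). Without single arrays the range was -0.11 to 0.060 for 1427577_x_at, -0.12 to 0.076 for 1451949_at, -0.011 to 0.018 for 1452536_s_at, -0.074 to 0.017 for 1425324_x_at, -0.041 to 0.0087 for 1427756_x_at, -0.020 to 0.0052 for 1427758_x_at, -0.12 to 0.058 for 1427869_at, -0.099 to 0.049 for 1421174_at, -0.13 to 0.0066 for 1427753_at and -0.040 to 0.13 for 1437279_x_at.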

Other observations

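Outside the members, 5 probe sets carried an older symbol of the kappa locus, Igk or Igk-V21, that the naming rule did not take in. Igk probe set 1425738_at read 8.84, 8.85 and 8.70 in control and 7.42, 7.32 and 7.44 in HDAC2 KO, and fell by 1.41 on the log2 scale (SE 0.062, limma adjusted p = 3.08e-05). Igk probe set 1427757_at fell by 0.60 (adjusted p = 0.000824) and 1426178_at, low on the scale, by 0.44 (adjusted p = 0.00374). The fourth, 1452557_a_at, differed by 0.09 (adjusted p = 0.466) and the Igk-V21 probe set 1427858_at by 0.07 (adjusted p = 0.581). Which part of the kappa locus each of these reads was not analysed here.

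Igll1, a surrogate light chain gene of developing B cells with sequence like the lambda constant genes, had 2 probe sets, which differed by -0.12 and -0.14 and were not called (adjusted p = 0.596 and 0.393).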
